A study of Mus musculus with 2 samples.

Results

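The Mir106a-363 cluster is a run of 6 miRNA genes on the X chromosome: Mir106a, Mir18b, Mir20b, Mir19b-2, Mir92-2 and Mir363. It was chosen by gene name for its difference between the 2 libraries seen in earlier results, so every value that compares the libraries is given as a description, without a test. All 6 genes were found among the 1973 miRNA genes listed, and each had at least 10 reads in each library, the limit used for detection. The libraries were made by microRNA-seq from total RNA of hearts of B6NCrl mouse embryos at day 16.5, with a stated size range under 30 (unit not given). Each pool held healthy embryos of both sexes, and no treatment or genetic change is given. The labels call the pools biological replicates, although both carry the same donor entry. They state 41 embryos for replicate 2 and no number for replicate 1, and they give no proportion of males and females in either pool. Spread between these 2 libraries may therefore hold both biological and technical differences. In whole-tissue RNA, fewer cells that make a miRNA and less of it per cell cannot be told apart.

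A miRNA cluster is transcribed as one long precursor from which each hairpin is cut separately, so genes of a cluster share transcription but not every later step. The Mir106a-363 genes are the X-linked paralogues of the Mir17-92 cluster and of the shorter Mir106b-25 cluster, which lies within the DNA replication gene Mcm7. The 3 clusters encode miRNAs known for promoting cell proliferation and for repressing cell cycle inhibitors and pro-apoptotic proteins. In mice, loss of Mir17-92 causes heart septum defects and death around birth, whereas loss of Mir106a-363 alone has no obvious effect on development. A miRNA pairs with its target mainly through its seed, bases 2 to 8, so members with one seed are counted as one family.

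The 6 main mature miRNAs are shown because they fall into 4 seed families and because the seeds order the results that follow. Sequences are those of RefSeq on GRCm38.p6, which is mm10, 5′ to 3′ in the order of transcription, with the seed in capitals. All 6 genes were matched by symbol.
miR-106a-5p: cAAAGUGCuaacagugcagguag
miR-18b-5p: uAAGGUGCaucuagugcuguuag
miR-20b-5p: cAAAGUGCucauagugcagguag
miR-19b-3p: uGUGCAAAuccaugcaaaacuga
miR-92a-3p: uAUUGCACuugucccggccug
miR-363-3p: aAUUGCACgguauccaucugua
Mir106a and Mir20b carry the AAAGUGC seed of miR-17, Mir18b the AAGGUGC seed of miR-18, Mir19b-2 the GUGCAAA seed of miR-19, and Mir92-2 and Mir363 the AUUGCAC seed of miR-92.

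Their closest paralogues are shown because read assignment rests on few bases.
miR-17-5p: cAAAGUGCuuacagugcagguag
miR-20a-5p: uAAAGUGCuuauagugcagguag
miR-18a-5p: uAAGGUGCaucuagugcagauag
miR-92b-3p: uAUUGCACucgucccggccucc
Counting positions from 1 at the 5′ end, miR-106a-5p differs from miR-17-5p at 1 of 23 bases (U10A). The 5p arm of Mir20b differs from miR-20a-5p at 2 bases (U1C and U10C) and from miR-106a-5p at 2 (A10C and C12U). Likewise miR-18b-5p differs from miR-18a-5p at 2 bases (A18U and A20U). The deposited counts join both arms of a hairpin, so the level of each arm was not measured. The main arms of Mir92-2 and Mir19b-2 are not unique: miR-92a-3p also lies in the hairpin of Mir92-1, and miR-19b-3p in that of Mir19b-1. The first base after the 21-base miR-92a-3p is A in Mir92-2 and U in Mir92-1. After the 23-base miR-19b-3p it is U in Mir19b-2 and C in Mir19b-1. Reads matching several places entered no gene, so the levels of Mir92-2 and Mir19b-2 leave out any read that stops at such a shared stretch. None of the listed arms of Mir106a, Mir20b, Mir18b or Mir363 occurred whole in another hairpin of the RefSeq table. The sources used here do not give the mismatches allowed in read alignment, and a transfer of a small part of the Mir17 reads to Mir106a was not tested.

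The genes lie on the minus strand within 875 bases of mm10 (chrX:52741693-52742567). In the order of transcription they are Mir106a (ENSMUSG00000065456.1, 52742503 to 52742567), Mir18b (ENSMUSG00000077111.2, 52742331 to 52742413) and Mir20b (ENSMUSG00000076041.1, 52742113 to 52742192). Mir19b-2 (ENSMUSG00000065473.1, 52741983 to 52742066), Mir92-2 (ENSMUSG00000065613.1, 52741838 to 52741928) and Mir363 (ENSMUSG00000070106.1, 52741693 to 52741767) follow. No annotated gene of the same strand other than miRNA genes spans any of them. The noncoding gene Kis2, on the same strand directly upstream (52742563 to 52744960), overlaps the first 5 bases of the Mir106a hairpin.

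A promoter of Kis2 is shown because Kis2 is the nearest annotated gene upstream of the 6 genes, all of which were higher in the same library. RefSeq gives it on GRCm38.p6 as chrX:52744544-52744843, minus strand, from 250 bases before the RefSeq start of Kis2 to 50 after it, with GC boxes (GGGCGG) in capitals. The RefSeq start (52744593) lies 367 bases downstream of the GENCODE start given above, so the window falls within the GENCODE gene.
Kis2 promoter: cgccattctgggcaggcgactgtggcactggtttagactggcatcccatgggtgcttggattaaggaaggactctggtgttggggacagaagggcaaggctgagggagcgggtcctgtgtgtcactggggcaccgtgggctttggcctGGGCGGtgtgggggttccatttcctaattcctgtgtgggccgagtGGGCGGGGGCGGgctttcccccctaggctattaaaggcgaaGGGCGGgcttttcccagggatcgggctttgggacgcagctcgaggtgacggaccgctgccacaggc
It holds 4 GC boxes on its plus orientation, a motif that 35.7% of the 32851 promoter windows searched hold on either strand at least once. The E-box CACGTG (7.15% of windows), the E2F forms TTTCCCGC (1.07%) and TTTGGCGC (0.514%), CCAAT (37.4%) and TATAAA (13.6%) were searched on both strands and are not among its letters. Of the 4 GC boxes, 2 lie side by side without overlap. Whether this window drives the 6 genes in heart was not tested.

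The libraries held 6473482 sense reads at listed genes in replicate 1 and 5841568 in replicate 2. Levels are sense reads per 1000000 of that total (CPM), and a read covers a mature miRNA, so levels are not divided by gene length. Reads counted in no gene because they matched several places made up 29.5% and 31.9% of all reads. At a count of 0, up to 3 reads are possible, or 0.463 CPM for replicate 1 and 0.514 CPM for replicate 2. Intervals are 95% intervals for counting error only, since PCR copies are not independent molecules. The heart muscle markers Mir208a, Mir208b and Mir499 together stood at 67703 CPM in the first library and 67119.8 CPM in the second. These high levels match the tissue label, but the muscle genes Mir1a-1 and Mir133a-1, not on that list, had means of 2.41 and 2.67 CPM. The part of reads left out for matching several places in these low means was not tested.

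The Mir106a-363 genes were low to moderate in the heart and higher in replicate 2 than in replicate 1. Together they held 3568 reads (551 CPM) in replicate 1 and 7454 reads (1276 CPM) in replicate 2, a mean of 914 ± 513 CPM (SD, n = 2). Replicate 2 thus exceeded replicate 1 by 2.32-fold (95% interval for counting error 2.22 to 2.41). All 6 members were higher in replicate 2, which held for 48.8% of the 365 detected genes. At least 1.5-fold higher were 5 of 6 members, against 8.49% of detected genes, and at least 2-fold higher were 2 of 6, against 1.37%. The 5 include Mir19b-2, whose 13 and 18 reads gave a ratio interval of 0.711 to 3.41. In the opposite direction 6.03% of detected genes were at least 1.5-fold lower and 2.19% at least 2-fold lower, with 0 of the 6 members among them. Because the cluster was picked for this contrast, these counts show how it was chosen and carry no further weight.

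**Figure D1:**
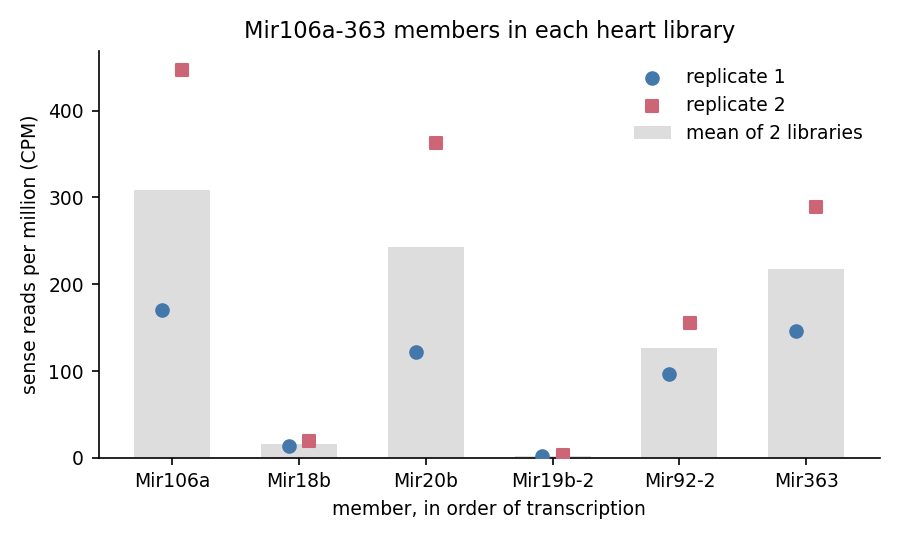
Level of each Mir106a-363 member in CPM (vertical axis), in the order of transcription, with replicate 1 as circles, replicate 2 as squares and the mean of both libraries as bars. Replicate 2 lies above replicate 1 for all 6 genes, from 3.08 against 2.01 CPM for Mir19b-2 to 447 against 171 CPM for Mir106a.

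The members with the miR-17 seed had the highest mean levels over the 2 libraries and the widest gap between pools, although Mir20b was below Mir363 in replicate 1. Mir106a had 1104 reads (171 CPM) in replicate 1 and 2609 (447 CPM) in replicate 2, a mean of 309 ± 195 CPM (SD, n = 2). Its ratio between the libraries was 2.62 (2.44 to 2.81), the second highest among detected genes. Mir20b had 791 reads (122 CPM) and 2120 reads (363 CPM), a mean of 243 ± 170 CPM. At 2.97 (2.74 to 3.23), its ratio ranked 1 of 365. In the order of levels Mir106a moved from rank 152 in replicate 1 to rank 108 in replicate 2, and Mir20b from rank 177 to rank 117.

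The members with the miR-92 seed had lower mean levels and smaller gaps. Mir363, the last hairpin of the cluster, had 947 reads (146 CPM) in replicate 1 and 1686 (289 CPM) in replicate 2, a mean of 217 ± 101 CPM. Its ratio of 1.97 (1.82 to 2.14) lay just under 2-fold, and TMM scaling (a trimmed mean of gene ratios) placed it at 2.01. Mir92-2 had 623 reads (96.2 CPM) and 910 reads (156 CPM), a mean of 126 ± 42.1 CPM and a ratio of 1.62 (1.46 to 1.80). Both genes were lower in replicate 1, but by less than Mir106a and Mir20b, whose intervals did not meet theirs.

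Mir18b and Mir19b-2 had the fewest reads of the cluster and ranked 258 and 345 of 365 detected genes by mean level. Mir18b, the X-linked gene of the miR-18 family, had 90 reads (13.9 CPM) and 111 reads (19.0 CPM), a ratio of 1.37 (1.03 to 1.83). Mir19b-2, the X-linked copy of the gene for miR-19b, had 13 reads (2.01 CPM) and 18 reads (3.08 CPM). Its ratio of 1.53 had an interval of 0.711 to 3.41. A difference between the libraries was thus not detectable for Mir19b-2 with so few counted reads. Reads of miR-19b-3p that match both Mir19b-2 and Mir19b-1 entered no gene, so these counts and the rank do not give the full level of Mir19b-2. Opposite-strand counts were 0 in both libraries at all 6 genes.

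By mean level the order was Mir106a, Mir20b, Mir363, Mir92-2, Mir18b and Mir19b-2. The ranges over the 2 libraries overlapped for each neighbouring pair from Mir106a to Mir92-2, whereas those of Mir106a and Mir92-2 themselves did not overlap. Mir18b and Mir19b-2 lay below them and apart from each other in both libraries. Within a library, Mir106a exceeded Mir20b in both pools, by 1.40-fold (1.27 to 1.53) in replicate 1 and 1.23-fold (1.16 to 1.30) in replicate 2. Mir106a also exceeded Mir363 in both, by 1.17-fold (1.07 to 1.27) and 1.55-fold (1.46 to 1.65), and Mir92-2 by 1.77-fold (1.60 to 1.96) and 2.87-fold (2.66 to 3.09). Mir363 exceeded Mir92-2 by 1.52-fold (1.37 to 1.69) and 1.85-fold (1.71 to 2.01). The ratio of Mir20b over Mir363 was 0.835 (0.759 to 0.919) in replicate 1 and 1.26 (1.18 to 1.34) in replicate 2, so this pair changed order between the pools. Mir92-2 stood above Mir18b by 6.92-fold and 8.20-fold, and Mir18b above Mir19b-2 by 6.92-fold and 6.17-fold. The order of these lower genes was the same in both libraries. Levels of Mir92-2 and Mir19b-2 leave out reads that match several places, so the order holds for the counted reads.

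The make-up of the cluster differed between the pools beyond counting error. Mir106a and Mir20b held 30.9% (29.4 to 32.5, Wilson interval) and 22.2% (20.8 to 23.6) of its reads in replicate 1. In replicate 2 they held 35.0% (33.9 to 36.1) and 28.4% (27.4 to 29.5). The share of Mir92-2 was 17.5% (16.3 to 18.7) in replicate 1 and 12.2% (11.5 to 13.0) in replicate 2, and that of Mir363 26.5% (25.1 to 28.0) and 22.6% (21.7 to 23.6). Mir18b made up 2.52% (2.06 to 3.09) and 1.49% (1.24 to 1.79), and Mir19b-2 0.364% and 0.242%. The ratio of Mir106a over Mir18b, neighbours on the precursor, was 12.3 (9.89 to 15.4) in replicate 1 and 23.5 (19.4 to 28.7) in replicate 2. A single factor for all 6 genes therefore did not describe the gap between these libraries within counting error. Spread between other libraries of the same pools was not measured, so the part of library making in this was not tested.

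**Figure D2:**
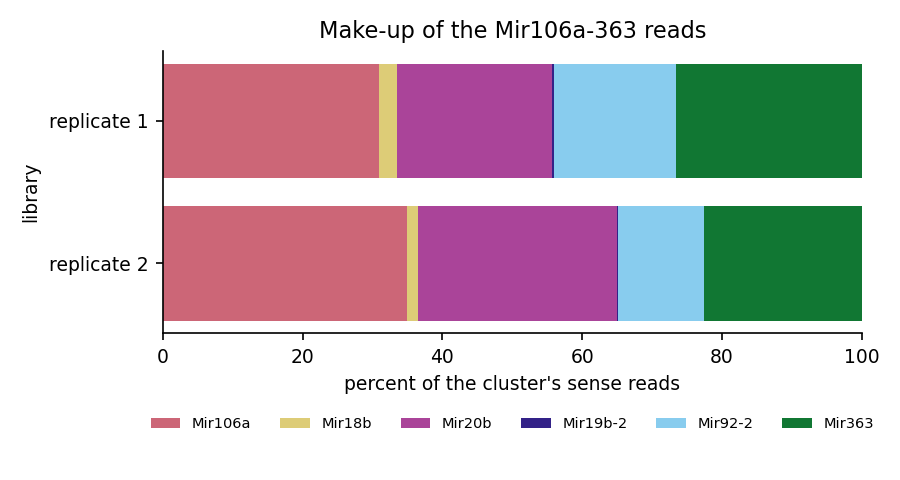
Percent of the Mir106a-363 sense reads (horizontal axis) that came from each member, as stacked bars for the 2 libraries in the order of transcription. Mir106a and Mir20b took a larger part in replicate 2 (35.0% and 28.4%) than in replicate 1 (30.9% and 22.2%), and Mir92-2 and Mir363 a smaller one.

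The paralogous clusters were far more abundant and closer between the pools. The 6 Mir17-92 genes on chromosome 14 together stood at 20781 CPM in replicate 1 against 23723 CPM in replicate 2, a ratio of 1.14 (1.13 to 1.15). They exceeded the X-linked genes 37.7-fold (36.5 to 39.0) in replicate 1 and 18.6-fold (18.2 to 19.0) in replicate 2. The 3 Mir106b-25 genes on chromosome 5 stood at 8109 and 9607 CPM, a ratio of 1.18 (1.17 to 1.20). The X-linked genes held 1.87% (1.81 to 1.93) of the reads of the 3 clusters in replicate 1 and 3.69% (3.61 to 3.77) in replicate 2. Since the X-linked cluster was picked for its gap between these libraries, its larger ratio restates that choice.

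Set gene by gene, Mir106a and Mir20b had larger ratios of replicate 2 over replicate 1 than Mir17 and Mir20a, at far lower levels. Mir17 stood at 12548 and 14229.7 CPM (ratio 1.13), 73.6-fold above Mir106a in replicate 1 and 31.9-fold in replicate 2. Mir20a stood at 4544 and 5794 CPM (ratio 1.28), 37.2-fold and 16.0-fold above Mir20b. Mir18 stood at 1706 and 1751 CPM, with a ratio of 1.03 whose interval (0.999 to 1.05) held 1, and exceeded Mir18b 123-fold and 92.1-fold. Mir18b, with few reads, had a ratio interval of 1.03 to 1.83, which overlapped that of Mir18. Overlap alone does not show that the 2 ratios are alike, and the gap between these copies was not tested.

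The copies with a shared main arm were less clear. Mir92-1 stood at 1962 and 1925 CPM with a ratio of 0.981 (0.956 to 1.006), and exceeded Mir92-2 20.4-fold and 12.4-fold among reads assigned to a single place. Mir19b-1 had 22 and 39 reads, a ratio of 1.96 (1.14 to 3.48), and Mir19a 113 and 103 reads, a ratio of 1.01 (0.766 to 1.33). The intervals of Mir19b-1 and Mir19b-2 overlapped widely. In the Mir106b-25 cluster, Mir93 had a ratio of 1.28 (1.26 to 1.30), Mir25 of 1.13 (1.06 to 1.21) and Mir106b of 1.05 (1.03 to 1.07).

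**Figure D3:**
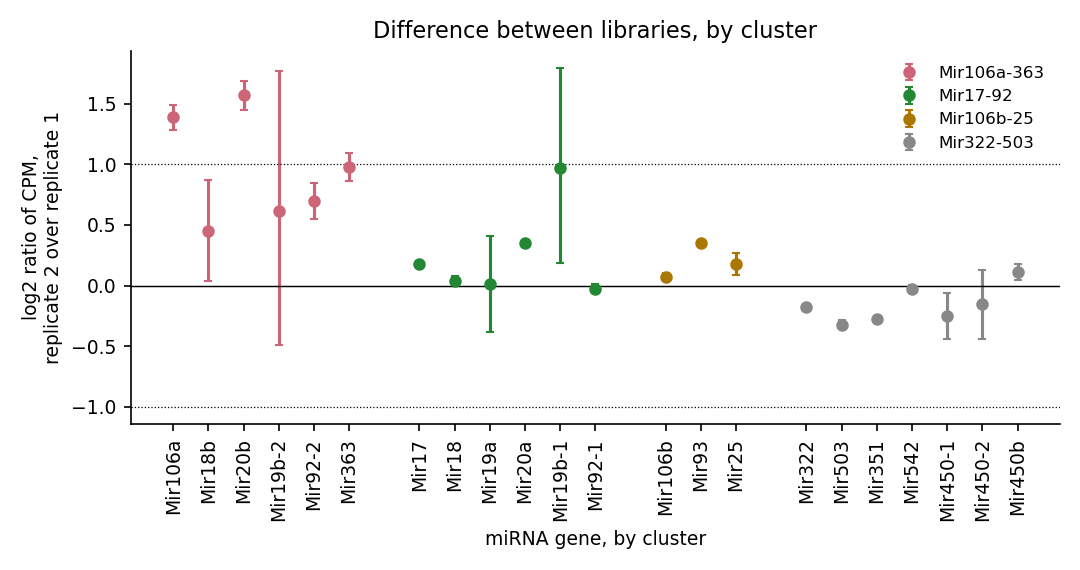
Log2 ratio of CPM, replicate 2 over replicate 1 (vertical axis), for each gene of the Mir106a-363, Mir17-92, Mir106b-25 clusters and of the cluster of Mir322 and Mir503, with 95% exact intervals for counting error and dotted lines at 2-fold. Mir20b (1.57) and Mir106a (1.39) lie above the upper line, while the paralogous genes other than the thinly read Mir19b-1 (0.97) lie between -0.03 and 0.35 and the genes clustered with Mir322 between -0.32 and 0.11.

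Read by seed family, the X-linked genes held a smaller part of the counted reads of the miR-17 seed than of the miR-92 seed. The miR-92 sum lacks reads of miR-92a-3p that match both of its genes, so these parts are not directly comparable. The AAAGUGC seed is carried by 7 listed genes, the members Mir106a and Mir20b with Mir17, Mir20a, Mir93, Mir106b and Mir6383, which had 0 reads in both libraries. The family stood at 25195 CPM in replicate 1 against 30102 CPM in replicate 2, and Mir106a and Mir20b made up 1.16% (1.11 to 1.22) and 2.69% (2.61 to 2.77) of it. Of the gap of 4907 CPM between the libraries, Mir106a and Mir20b accounted for 517 CPM. Without them the family ratio was 1.18 (1.17 to 1.18), against 1.19 (1.19 to 1.20) with them.

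The AUUGCAC seed had nearly the same summed level in both pools while its sources differed. The family stood at 2877 CPM in replicate 1 against 2894 CPM in replicate 2, a ratio of 1.01 (0.985 to 1.03). Mir363 and Mir92-2 supplied 8.43% (8.04 to 8.84) of it in replicate 1 and 15.4% (14.8 to 15.9) in replicate 2. The other genes together had a ratio of 0.930 (0.909 to 0.951). Among them Mir92b had 1663 reads (257 CPM) in replicate 1 and 492 (84.2 CPM) in replicate 2, 3.05-fold (2.76 to 3.38) lower in replicate 2. Mir32 had 758 and 603 reads, a ratio of 0.882 (0.791 to 0.982), and Mir367 had 0 in both libraries. Reads of miR-92a-3p that match both of its genes are missing from this sum. Mir18b made up 0.808% and 1.07% of the miR-18 family, and Mir19b-2 8.78% and 11.2% of the 148 and 160 counted reads of the miR-19 family. Reads of miR-19b-3p that match both of its genes are missing from the miR-19 counts too.

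Other X-linked miRNA genes did not stand higher in replicate 2 as a set. Across the 33 detected X-linked genes outside the cluster the median log2 ratio was -0.09, with 13 higher and 20 lower in replicate 2, against a median of -0.01 over all detected genes. Of these 33, 0 were at least 1.5-fold higher, and the highest ratio was that of the endothelial Mir221 at 1.43. The nearest listed cluster, that of Mir322 and Mir503, begins 305429 bases from Mir106a on the same strand. It stood at 109451 and 95409 CPM, a ratio of 0.872 (0.869 to 0.875), with 6 of 7 genes lower in replicate 2. Mir322, a miRNA of the miR-15 and miR-16 family, stood at 76479 and 67719 CPM, and Mir351 at 27476 and 22623 CPM. The remaining X-linked genes with a mean of at least 1000 CPM were Mir501, Mir188, Mir532, Mir503, Mir542, Mir361, Mir652, Mirlet7f-2 and Mir98. Including Mir322 and Mir351, log2 ratios of these 11 genes ran from -0.32 for Mir503 to 0.17 for Mir532.

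**Figure D4:**
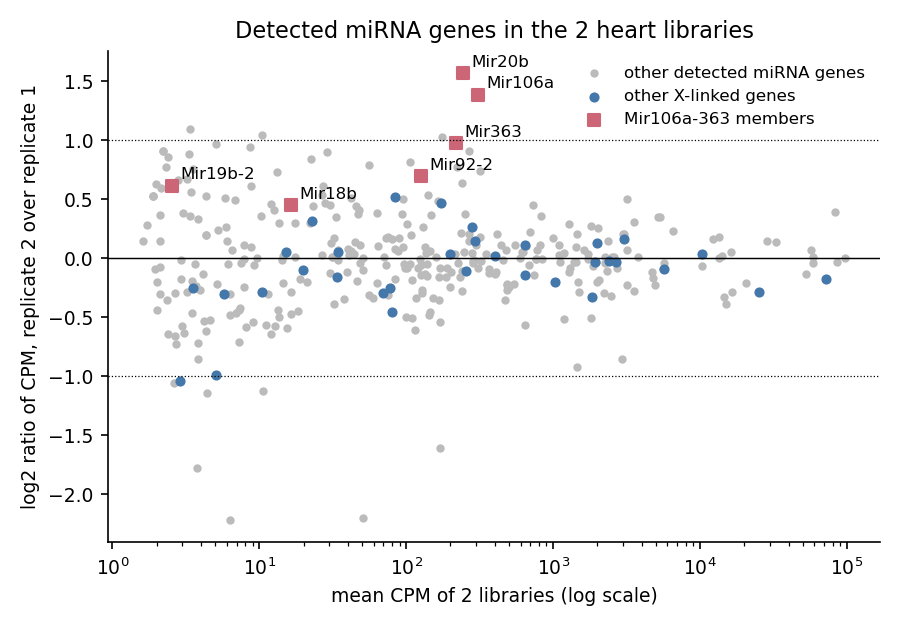
Mean level (CPM, log scale) against the log2 ratio of replicate 2 over replicate 1 for the 365 detected miRNA genes, with Mir106a-363 members as squares, other X-linked genes as dark points and dotted lines at 2-fold. Mir20b and Mir106a are the 2 highest points, and the other X-linked genes lie at or below 0.52.

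Other genes of a like level are given for scale. Among the 84 detected genes with a mean of 100 to 500 CPM, which include Mir106a, Mir20b, Mir363 and Mir92-2, the median absolute log2 ratio was 0.15, and 10 were at least 1.5-fold higher in replicate 2. The log2 ratios in this range ran from -1.61, for Mir92b, to 1.57, for Mir20b. Those of these 4 members were 1.39, 1.57, 0.98 and 0.69. Under 100 CPM, where Mir18b and Mir19b-2 lie, the median absolute log2 ratio was 0.33 over 178 genes.

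Among 183 genes outside the cluster with a mean of at least 100 CPM, the 5 whose log2 ratio lay nearest to that of the summed cluster (1.21) were Mir206, Mir30b, Mir128-2, Mir155 and Mir350. This likeness rests on 1 ratio over 2 libraries. Mir206, a skeletal muscle miRNA, was nearest, with 115 CPM in replicate 1 and 234 CPM in replicate 2, a ratio of 2.04 (1.87 to 2.24). Mir30b stood at 187 and 352 CPM (ratio 1.88), Mir128-2 at 76.2 and 134 CPM (1.76), the immune cell miRNA Mir155 at 164 and 280 CPM (1.71) and Mir350 at 238 and 399 CPM (1.68). All 5 differed from the cluster by 0.18 to 0.47 on the log2 scale.

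Markers of other cell types also differed between the pools, in both directions. The leukocyte markers (4 of 5 detected, with Mir142b at 0 in 1 library) summed to 667 CPM in replicate 1 and 822 CPM in replicate 2, a ratio of 1.23. Their detected genes ran from Mir223, nearly equal at 399 and 405 CPM (ratio 1.01), to Mir155 at 164 and 280 CPM (1.71). The epithelial list, all of the miR-200 family (5 of 5 detected, 0 at 0 reads), summed to 4624 and 3229 CPM, 1.43-fold lower in replicate 2. Outside that list, the epithelial Mir205 had a log2 ratio of 0.45 and Mir203 of -0.21, so epithelial miRNAs did not all go 1 way. The erythroid list (3 of 3) summed to 2118 and 1805 CPM. Pluripotency markers (7 of 11 detected, Mir367 at 0), which include stem cell clusters, summed to 635 and 556 CPM, with all 7 detected genes lower in replicate 2. Smooth muscle markers Mir143 and Mir145a (97336 and 98086 CPM) had a ratio of 1.01 between the pools. The endothelial list held only Mir126a (85876 and 84222 CPM), with a ratio of 0.981. Outside that list, the endothelial Mir221 and Mir222 had ratios of 1.43 and 1.04. The liver miRNA Mir122 stood at 160 and 161 CPM. The 5 listed neural genes together had 18 reads and 1 read, with 0 of 5 detected, 4 at 0 reads in at least 1 library and 2 at 0 in both. The part of these cell types in the cluster's difference was not tested.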

How the data were processed

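Small RNA of 2 heart libraries was analysed from deposited tables of raw read counts per miRNA gene. Per the file headers of the lists that accompany them, the authors counted on mm10 with annotation M4. The sources used here name no aligner, counter or trimming step. Each table holds 3 count columns, either strand and each strand alone, and the strand column with the larger total was taken as sense. The first 4 lines name no gene and were left out of totals. Symbols were taken from GENCODE M21 (also mm10), which matched 1894 of 1973 identifiers. CPM is sense reads per 1000000 sense reads at genes. Detection needed 10 reads in each library. Intervals of ratios are exact (Clopper-Pearson) and those of shares Wilson intervals. With 1 group no contrast could be tested, so no p-value is given. The members and lists were chosen with earlier results of these data known. Named genes were the members, their paralogues, genes sharing a seed, X-linked genes of at least 1000 CPM and the 5 nearest patterns. Alternatives used edgeR 4.0.16 (TMM) and DESeq2 1.42.0 size factors in R 4.3.3. Python 3.11.15 and scipy 1.17.1 were used. The ratio intervals were run on simulated counts that held counting error only. This checks the calculation and cannot show how the intervals fare with PCR copies or other spread between libraries.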

Additional observations from a re-analysis of the deposited data

How the results depend on the processing

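All 6 members had a ratio above 1 under each of 5 alternatives (TMM, DESeq2 size factors, counts of either strand, all reads as the denominator, and the total without the most abundant gene). Across these, Mir20b ranged from 2.95 to 3.16, Mir106a from 2.60 to 2.79, Mir363 from 1.96 to 2.10, Mir92-2 from 1.61 to 1.72, Mir19b-2 from 1.53 to 1.63 and Mir18b from 1.36 to 1.46. Each alternative only rescales the libraries at the members, whose reads were all on the sense strand. The member ratios thus move together by a common factor, and their staying above 1 adds no support. Mir363 passed 2-fold with TMM and with all reads, which made 3 members in place of 2. The background count rose too, since with TMM 7 of the 365 detected genes were at least 2-fold higher in place of 5. With all reads as the denominator, the ratio was 2.47 for the cluster, 1.22 for Mir17-92 and 1.26 for Mir106b-25. There, 11 of the 365 detected genes were at least 2-fold higher in place of 5. The cluster's mean level was 407 reads per 1000000 of all reads in place of 914 CPM, since that denominator also holds reads counted in no gene. With TMM, the ratios of Mir17-92 and Mir106b-25 were 1.16 and 1.21. The background counts depended on the detection limit. At least 1.5-fold higher were 106, 15 and 14 genes with limits of 1, 50 and 100 reads, in place of 31, and at least 2-fold higher were 57, 3 and 3 genes. The count of members at 1.5-fold fell from 5 to 4 with limits of 50 and 100 reads, which Mir19b-2 does not reach. Mir18b, with a ratio under 1.5, does not reach 100 reads in replicate 1 either. The limit also changes how many genes and members are counted, so these counts are not shares of all genes. Without replicate 1 or replicate 2, the cluster's mean level was 1276 or 551 CPM and its share of the 3 clusters 3.69% or 1.87%. Without Mir92-1 and Mir92-2, whose mature sequence is shared, Mir363 held 26.7% of the remaining miR-92 seed reads. With them, Mir363 and Mir92-2 held 11.9%. Both are means over the libraries, and the smaller sum lacks Mir92-1, the largest counted source of this seed. No paired analysis was possible because there is a single group. Low read numbers limit Mir18b and Mir19b-2 most, and Mir19b-2 also lacks reads that match several places.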
